A study of Mus musculus with 6 samples.

Results

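Transcripts of 5 genes for the phagocyte NADPH oxidase (Cybb, Cyba, Ncf1, Ncf4 and Rac2) were followed in mouse leukemia cells with and without a working Alox5 gene, the gene of 5-lipoxygenase, which makes leukotrienes. The genes were taken by symbol from the 46983 genes of the deposited count table by a rule that uses no measured value, although the family was picked with earlier results of these data known, and all 5 passed the filter on low counts. Both groups began as bone marrow stem and progenitor cells of C57BL/6J mice (the LSK gate, which takes cells without lineage markers that carry Sca-1 and c-Kit), from Alox5-/- donors in one group and wild-type (WT) donors in the other. In both, a retrovirus delivered the oncogene MLL-AF9, which arises from a chromosome translocation in human leukemia, and GFP+ cells were passed to irradiated C57BL/6J recipients. Each group held 3 untreated libraries of poly-A RNA from sorted cells, for which the labels give bone marrow as the tissue. The labels name 1 cell line per genotype and do not say which animals the replicates came from. The p-values therefore measure only the spread between these samples, and the genotype cannot be told apart from any other difference between those lines.

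The phagocyte oxidase moves electrons from NADPH across a membrane to oxygen and so makes superoxide, the first product of the respiratory burst of neutrophils and macrophages. Its catalytic core is a membrane flavocytochrome of gp91phox (NOX2, from Cybb) and p22phox (from Cyba), which stabilise each other as proteins. The organiser p47phox (from Ncf1) and the adaptor p40phox (from Ncf4) wait in the cytosol with their partners, and together with a GTP-bound Rac protein, in neutrophils chiefly Rac2, they join the core when the cell is stimulated. Inherited loss of a core or cytosolic phox subunit causes chronic granulomatous disease, in which phagocytes cannot kill certain microbes. The subunit genes are switched on as myeloid cells mature, under transcription factors that include PU.1.

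Cybb was the member with the deepest difference between the genotypes, and the 150 bases before its RefSeq start site are shown first because later sentences refer to their motifs. They lie on chrX:9469325-9469474, minus strand, build GRCm38.p6, inside the longer gene model of the annotation used for positions. Capitals mark a CCAAT box, a sequence bound by CCAAT-binding factors.

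Cybb promoter: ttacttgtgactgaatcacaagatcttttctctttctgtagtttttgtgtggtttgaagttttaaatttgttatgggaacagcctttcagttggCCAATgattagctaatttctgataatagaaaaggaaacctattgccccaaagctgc

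The CCAAT box began 56 bases before the start on the strand of the gene. CCAAT was searched on both strands of the 250 bases before each start, and 33.8% of the 32851 RefSeq promoters held it. The purine-rich core GAGGAA, a PU.1 and ETS-family motif, was found in 23.3% of the promoters and the TATA box TATAAA in 12.4%. Neither exact string was present in these 250 bases of Cybb. Only exact strings were searched, so PU.1 or ETS-family sites spelled otherwise would be missed. In a search of the 50 bases after the start, chosen after seeing the data, GAGGAA stood on the opposite strand at bases 10 to 15 of Cybb, and 6.02% of the promoters held it in that window. The same 250-base windows of Cyba and Ncf1 held none of the 3 exact strings. The Cybb window was also the richest in A and T of these 3 genes, with a GC content of 34.0% against 60.0% for Cyba and 54.4% for Ncf1. A match is a description of the letters and not a measured binding site.

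The 6 libraries held 28985597 to 38695948 reads assigned to genes. The targeted gene, Alox5, stood at 64.2 ± 1.87 CPM in Alox5-/- (reads of a gene after all libraries are brought to the same size, mean ± SD, n = 3) against 105 ± 1.87 CPM in WT (log2 fold change -0.70, adjusted p = 7.65e-10). The Alox5 transcript was thus lower but still present, and since the table counts the whole gene, the disrupted part of it could not be checked. In edgeR's quasi-likelihood test with an adjusted p under 0.05, 53.8% of the 13705 tested genes (7379) passed and are termed called, with 26.8% higher and 27.0% lower in Alox5-/-. The even split depends on the scaling, with 4076 genes higher and 3201 lower with upper-quartile scaling and 4326 and 2959 with library totals alone. Replicate 2 of Alox5-/- stood apart from the other 2 of its group, with chi-square values per degree of freedom of 9.09 and 10.3 against 2.18 between those 2. Ly6a, the gene of the Sca-1 protein that the gate names, was close to absent, at 0.763 ± 0.158 CPM in Alox5-/- against 1.06 ± 0.169 CPM in WT, while Kit stood at 136 ± 2.73 and 160 ± 3.09 CPM. Of the 4 tested LSK markers, 2 were higher (Flt3 at 0.91 and Cd34 at 0.36 on the log2 scale), Kit was lower (-0.23) and Ly6a was not called, and the list summed to 380 to 391 CPM against 344 to 354 CPM in WT. Ly6a was named after its values were seen.

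Of the 5 genes, 3 were lower in Alox5-/- (Cybb, Ncf4 and Rac2), none was higher, and Cyba and Ncf1 were not called. The 60.0% called among the members stands beside 53.8% over all tested genes, so the count alone does not set the family apart. The sizes of the differences were unequal. Cybb fell by more than 2-fold, as 630 of all tested genes did in either direction, whereas the other 4 changed by at most 15.3%. The members' median log2 fold change was -0.12, beside 0.00 over all tested genes.

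**Figure D1:**
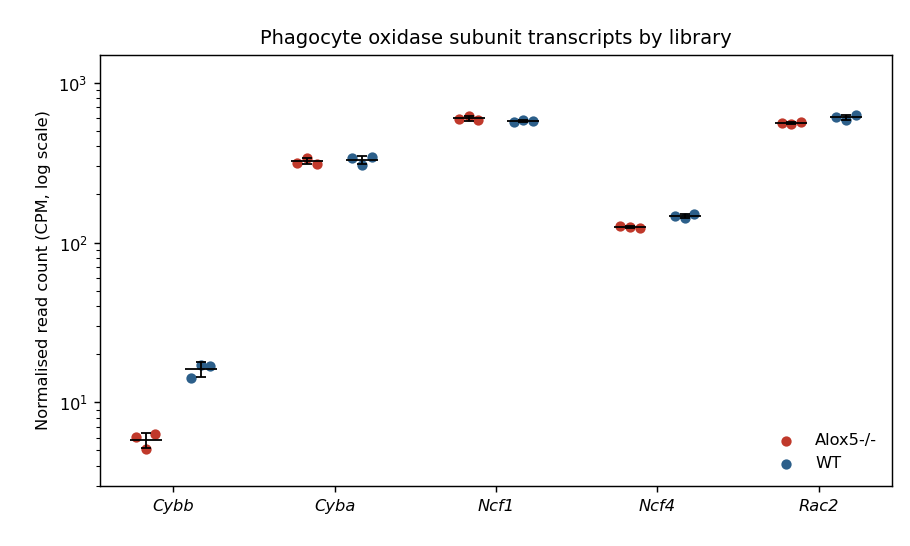
Normalised read count (CPM, log scale) of the 5 oxidase genes in each library, with Alox5-/- in red and WT in blue and bars giving the mean ± SD of 3 libraries. The red and blue Cybb points are far apart (means of 5.84 and 16.1 CPM), while those of the other 4 genes lie close together.

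Cybb encodes gp91phox, the subunit that carries the flavin and haem groups of the enzyme, and lies on the X chromosome (ENSMUSG00000015340.10, mm10, 9435252 to 9487771, minus strand). It gave 189, 150 and 188 reads in Alox5-/- replicates 1 to 3 and 423, 512 and 645 reads in WT replicates 1 to 3. After scaling these were 6.06, 5.13 and 6.32 CPM in Alox5-/- and 14.2, 17.2 and 16.9 CPM in WT. Every Alox5-/- library was below every WT library, and the highest Alox5-/- value was less than the lowest WT value by more than the whole spread of either group. The means were 5.84 ± 0.628 and 16.1 ± 1.69 CPM (SD, n = 3), a fall of 63.7% or 2.76-fold. The log2 fold change was -1.46 (SE 0.10, 95% interval -1.67 to -1.26, adjusted p = 1.07e-08). Only 141 of the 13705 tested genes (1.03%), Cybb itself included, fell this far or further. The lowest Cybb value came from replicate 2 of Alox5-/-, the library that stood apart, and without it the log2 fold change was -1.37. In bulk RNA, fewer cells that express a gene and less of its RNA per cell cannot be told apart, here and in all results that follow.

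Because Cybb is X-linked, its fall was set beside its chromosome. The RNA that coats the inactive X chromosome, Xist, stood at 181 ± 14.3 CPM in Alox5-/- against 1782 ± 117 CPM in WT (log2 fold change -3.30, adjusted p = 1.38e-14), although it overlaps the antisense gene Tsix and the sources used here do not give the strand setting of the counting. Among 467 other tested X-linked genes, 27.6% were lower and 20.3% higher, with a median log2 fold change of -0.03. Among 13185 autosomal genes 27.0% were lower and 27.1% higher, with a median of 0.00. Of those 467 X-linked genes, 9 fell at least as far as Cybb, as did 130 of the 13185 autosomal genes.

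Around Cybb itself, 59 tested genes lay within 5 Mb, of which 16 were lower, 11 higher and the rest not called. The 27.1% lower and 18.6% higher stand beside 27.0% and 26.8% over all tested genes. Their log2 fold changes ran from -0.90 (Gm14480) to 0.79 (Glod5), and none reached the fall of Cybb. Only 1.03% of all tested genes did, so finding none among 59 does not set the region apart. Gm14480 and Glod5 were named after their values were seen. The part of the Xist difference in the Cybb result was not tested.

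**Figure D2:**
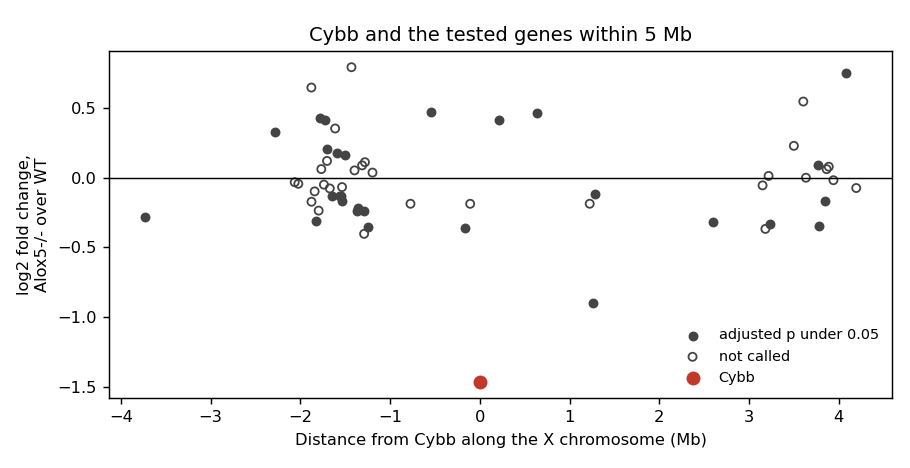
Log2 fold change (Alox5-/- over WT) of Cybb and the 59 tested genes within 5 Mb, by distance along the X chromosome in Mb, with filled points at an adjusted p under 0.05. Cybb is the lowest point at -1.46, and the neighbours spread to both sides of 0, between -0.90 and 0.79.

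Cyba encodes p22phox, the membrane partner of gp91phox and the docking site of p47phox (ENSMUSG00000006519.10, chromosome 8, 122424776 to 122432930, minus strand). It stood at 317, 341 and 312 CPM in the Alox5-/- libraries and 339, 307 and 342 CPM in WT. The groups overlapped, since the highest Alox5-/- library exceeded 2 of the 3 WT libraries. The log2 fold change was -0.03 (SE 0.04, adjusted p = 0.624), and its 95% interval of -0.12 to 0.07 excludes a change of the size seen for Cybb. Its sign turned with 2 other library scalings, which gave 0.00 and 0.02.

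For every 100 reads of Cyba there were 1.91, 1.51 and 2.02 reads of Cybb in the Alox5-/- libraries and 4.18, 5.62 and 4.94 in WT. This ratio needs no scaling between libraries, and all Alox5-/- values were below all WT values. The difference in mean log2 ratio was -1.44, or 2.71-fold. An exact two-sided permutation test over 3 against 3 libraries gave p = 0.1, the smallest it can give, and 0.1 after adjustment over the 3 ratios computed. Per kilobase of annotated exon, the Cybb level was 0.343%, 0.269% and 0.362% of the Cyba level in Alox5-/- and 0.748%, 1.01% and 0.883% in WT. The transcript of the catalytic subunit was thus scarce beside that of its partner in both genotypes.

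**Figure D3:**
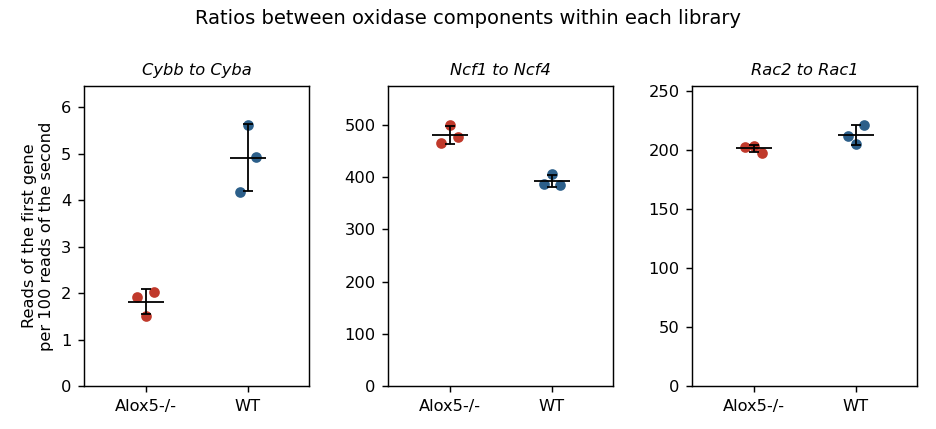
Reads of one oxidase gene per 100 reads of another in each library (linear axes from 0), for Cybb to Cyba, Ncf1 to Ncf4 and Rac2 to Rac1, with bars giving mean ± SD of 3 libraries. The 2 groups separate in all 3 panels, widely for Cybb to Cyba (1.51 to 2.02 against 4.18 to 5.62) and narrowly for Rac2 to Rac1 (198 to 204 against 205 to 221).

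Ncf1 encodes p47phox, which carries the cytosolic complex to the membrane once it is phosphorylated (ENSMUSG00000015950.13, chromosome 5, 134220053 to 134229625, minus strand). It stood at 591, 622 and 586 CPM in Alox5-/- and 569, 581 and 580 CPM in WT. The Alox5-/- libraries were all above the WT libraries, by a margin smaller than the spread within the Alox5-/- group. The log2 fold change was 0.05 (SE 0.03, 95% interval -0.01 to 0.12, adjusted p = 0.158), so Ncf1 was not called. It passed the threshold with upper-quartile scaling (0.08, adjusted p = 0.0356) and with library totals alone (0.10, adjusted p = 0.015). An exon of Ncf1 overlaps Gtf2ird2 on the other strand, and that gene was counted at only 9.78 CPM in Alox5-/-.

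Ncf4 encodes p40phox, an adaptor that binds the phagosome lipid phosphatidylinositol 3-phosphate (ENSMUSG00000071715.11, chromosome 15, 78244801 to 78262580, plus strand). It stood at 127, 124 and 123 CPM in Alox5-/- and 148, 143 and 151 CPM in WT. The groups did not overlap, and the replicates of each lay close together. Its means of 125 ± 2.0 and 147 ± 3.82 CPM (SD, n = 3) differ by a fall of 15.3%, a log2 fold change of -0.24 (SE 0.03, 95% interval -0.31 to -0.17, adjusted p = 2.45e-05). The call held in each alternative run, with values of -0.26 to -0.22 when single libraries were left out.

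The transcripts of the organiser and the adaptor were compared directly. There were 466, 500 and 477 reads of Ncf1 per 100 reads of Ncf4 in Alox5-/- and 386, 406 and 385 in WT, with no overlap. The difference in mean log2 ratio was 0.29 (exact two-sided permutation p = 0.1, the smallest possible, and 0.1 adjusted).

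Rac2 encodes a haematopoietic Rac GTPase, the switch that completes the active oxidase in neutrophils (ENSMUSG00000033220.6, chromosome 15, 78559167 to 78572783, minus strand). It stood at 562, 551 and 564 CPM in Alox5-/- and 609, 584 and 630 CPM in WT. All Alox5-/- libraries were below all WT libraries, with a wider spread in WT. The means were 559 ± 6.78 and 608 ± 23.2 CPM (SD, n = 3), a fall of 8.01%. The log2 fold change was -0.12 (SE 0.03, 95% interval -0.19 to -0.05, adjusted p = 0.00612), and with library totals alone it was no longer called (-0.08, adjusted p = 0.0682). With this gene, 4 of the 5 members had groups that did not overlap, beside 60.0% of all tested genes. The non-overlapping members were 3 lower (30.2% of all tested genes) and 1 higher (29.7%).

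Rac1, the ubiquitous relative that can replace Rac2 in the oxidase of macrophages, stood at 278 ± 7.19 CPM in Alox5-/- against 286 ± 1.59 CPM in WT and was not called (log2 fold change -0.04, adjusted p = 0.277). Its exons overlap those of Daglb. There were 203, 204 and 198 reads of Rac2 per 100 reads of Rac1 in Alox5-/- and 212, 205 and 221 in WT. The highest Alox5-/- value lay just below the lowest WT value. The difference in mean log2 ratio was -0.08 (exact two-sided permutation p = 0.1, the smallest possible, and 0.1 adjusted). Rac3 was near the detection limit at 0.720 and 0.597 CPM and was not called. BC017643, an older symbol of Cybc1, encodes a chaperone that gp91phox and p22phox need to form a stable pair. It stood at 91.1 ± 2.15 and 94.5 ± 0.340 CPM and was not called (log2 fold change -0.05, adjusted p = 0.206), and its exons overlap those of Hexdc. None of these 3 further components was called, beside 53.8% of all tested genes.

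**Figure D4:**
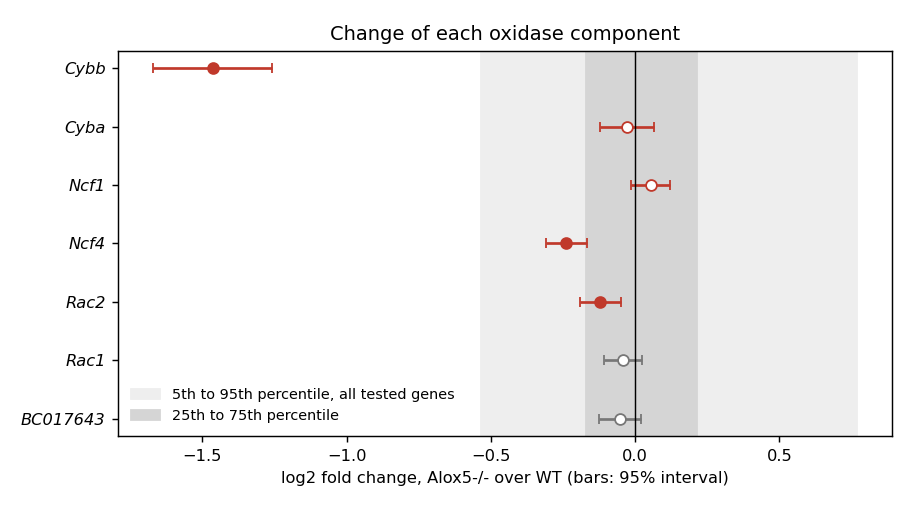
Log2 fold change (Alox5-/- over WT) of 7 oxidase components with 95% intervals, members in red, other components in grey, filled where the adjusted p was under 0.05. Cybb at -1.46 lies outside the light band that holds all tested genes from the 5th to the 95th percentile (-0.54 to 0.77), and Ncf4 at -0.24 lies just below the dark band from the 25th to the 75th (-0.17 to 0.21).

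Compared per kilobase of annotated exon, the subunit transcripts fell into a wide order of levels. Cyba was first at 311 ± 14.6 CPM per kb in Alox5-/- and 317 ± 18.9 in WT. Rac2 followed at 180 ± 2.18 and 196 ± 7.48, and Ncf1 at 164 ± 5.30 and 158 ± 1.78. Ncf4 came next at 61.7 ± 0.989 and 72.8 ± 1.89. Cybb was last at 1.01 ± 0.108 and 2.77 ± 0.290 CPM per kb. Within each genotype, neighbours among the 5 members did not overlap in any library. With the length of the principal transcript in place of all exons, chosen after seeing the data, Ncf1 (220 in Alox5-/- and 212 in WT) stood above Rac2 (184 and 200) and the other members kept their places.

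For each member, the genes with the most similar pattern over the 6 libraries were sought by the root mean square difference of mean-centred log2 CPM, among 10206 genes of at least 5 CPM. The libraries share their sources and depths, so this is a description only. The genes nearest to Cybb were the processed pseudogenes Gm8355 (difference 0.11, log2 fold change -1.53) and Gm15459 (0.12, -1.59), then Chdh, B4galt6 and Serpine2, with log2 fold changes of -1.52, -1.43 and -1.33. Reads of a pseudogene can belong to its parent gene, so the first pair is uncertain. Nearest to Cyba were Tap2 and Rbfa. Nearest to Ncf1 were Mkrn1 and Chchd3, nearest to Ncf4 were Arhgap4 and Ppil1, and nearest to Rac2 were Lasp1 and Txndc5.

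The wider pathway was followed in 7 lists with 79 tested genes beside the members. Of these, 23 were higher, 26 lower and 30 not called, and the median was -0.04 on the log2 scale. The 62.0% called stands beside 53.8% over all genes (26.8% higher and 27.0% lower). With upper-quartile scaling 24 were higher and 21 lower, and with library totals alone 25 and 19. In the plot of the pathway lists, the 5 larger lists have called genes on both sides of 0.

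**Figure D5:**
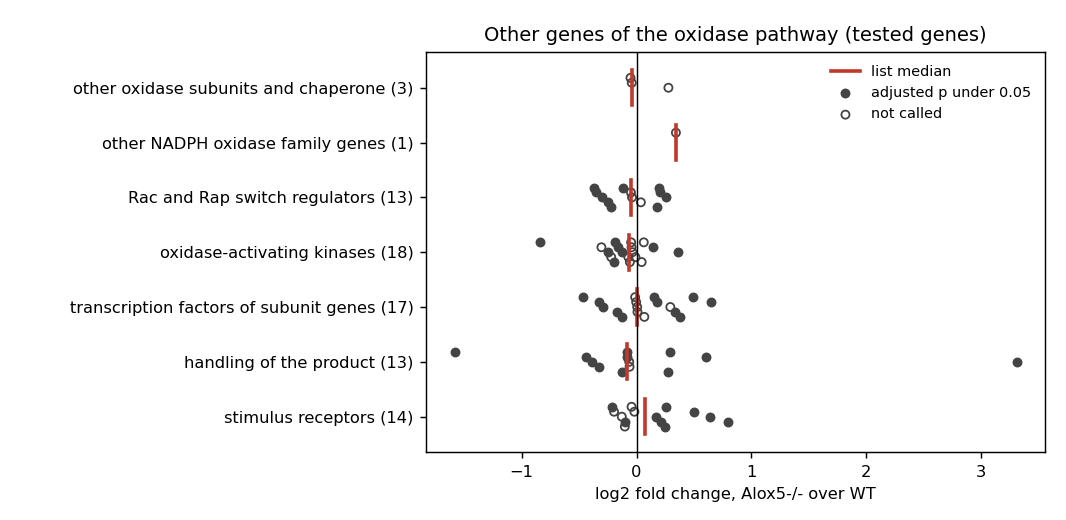
Log2 fold change (Alox5-/- over WT) of the 79 tested genes of 7 oxidase pathway lists, number tested in brackets, filled where the adjusted p was under 0.05, with red bars at the list medians. The medians of the 5 lists with over 4 tested genes lie between -0.08 and 0.08, and the outlying points are Mpo at -1.59, Btk at -0.84, Tlr4 at 0.80 and Nos2 at 3.31, the last from at most 2 reads in any WT library.

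The other members of the oxidase family were scarcely transcribed. Of Nox1, Nox3, Nox4, Noxo1, Noxa1, Duox1, Duox2, Duoxa1 and Duoxa2, 5 were at 0 reads in all 6 libraries and only Noxo1, an organiser of the NOX1 enzyme, was tested. It stood at 1.36 ± 0.363 and 1.08 ± 0.176 CPM and was not called (log2 fold change 0.34, adjusted p = 0.207). Among NADPH oxidase enzymes of these lists, Cybb was therefore the one with the reads to be compared.

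The regulators of the Rac and Rap switches included 4 higher, 6 lower and 3 uncalled genes (median -0.05). That is 76.9% called, beside 53.8% of all tested genes. Dock2, an exchange factor that loads Rac with GTP in leukocytes, fell from 352 ± 3.20 CPM in WT to 273 ± 8.44 CPM (log2 fold change -0.37, adjusted p = 1.79e-07). Lower, too, were the Rac exchange factor Vav1 (-0.25) and the inhibitors Arhgdia (-0.30) and Arhgdib (-0.22), which hold Rac proteins in the cytosol. Rap1a, a small GTPase that co-purifies with the flavocytochrome, was higher (0.26). The exchange factors Dock5 (-0.05) and Prex1 (0.04) were not called.

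Of 18 tested kinases that act upstream of the oxidase, 2 were higher, 6 lower and 10 not called (median -0.06). That is 44.4% called, beside 53.8% of all tested genes. The largest difference was in Btk, a tyrosine kinase of B cells and myeloid cells that is also X-linked, at 258, 250 and 257 CPM in Alox5-/- and 445, 468 and 453 CPM in WT. These groups were far apart, with a log2 fold change of -0.84 (adjusted p = 3.01e-11). Akt1 (-0.25), Syk (-0.16) and Pik3c3 (-0.20), which makes the lipid that p40phox binds, were lower. Pik3cg, the lipid kinase below G protein-coupled receptors, was higher (0.36). The MAP kinase Mapk14 (0.04) and the lipid kinase Pik3cd (-0.04) were not called, although Mapk14 was with library totals alone (0.088, adjusted p = 0.0302).

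Among 17 transcription factors known to act on subunit genes, 6 were higher, 5 lower and 6 not called (median 0.01). That is 64.7% called, beside 53.8% of all tested genes. Hoxa10 (-0.33) and Elf1 (-0.29) were lower, whereas Runx1 (0.65), Hoxa9 (0.33) and Irf8 (0.38) were higher. The homeobox factor Cux1 (0.00) and the coactivator Ep300 (0.01) were not called. A pair of this list, both lower, was named after the values were seen because both act in myeloid maturation. The pair does not stand for the list, in which 6 were higher and 5 lower. Spi1, the gene of PU.1, stood at 138, 166 and 139 CPM in Alox5-/- and 167, 157 and 174 CPM in WT, with overlapping groups. Its log2 fold change of -0.17 (adjusted p = 0.0239) was no longer called with DESeq2 (adjusted p = 0.155), a robust fit (0.131) or library totals alone (0.0707), nor without replicate 1 (0.118) or 3 (0.115) of Alox5-/- or replicate 1 (0.0594) or 3 (0.108) of WT. Cebpe, needed for late granulocyte maturation, was lower (-0.47, adjusted p = 7.99e-05).

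Of 13 tested genes that handle superoxide and its products or supply the enzyme, 4 were higher, 7 lower and 2 not called (median -0.08). That is 84.6% called, beside 53.8% of all tested genes. Mpo, myeloperoxidase, which turns hydrogen peroxide into hypochlorous acid, gave 74.2, 63.5 and 59.1 CPM in Alox5-/- and 210, 199 and 183 CPM in WT. Its groups did not overlap, with a 3.0-fold fall (log2 fold change -1.59, adjusted p = 8.46e-11). G6pdx, which makes NADPH and is X-linked, was lower (-0.44), as were the peroxide-removing enzymes Gpx1 (-0.39) and Prdx1 (-0.32). Hvcn1, the proton channel that balances the charge moved by the oxidase, was higher at 17.3 ± 0.850 against 11.3 ± 0.317 CPM (0.61). Sod2 and the chloride transporter gene Clcn3 were not called (both -0.06), although Clcn3 was without replicate 3 of WT (-0.17, adjusted p = 0.0072). Nos2, named after its values were seen, gave 14, 19 and 16 reads in Alox5-/- and 2, 2 and 1 reads in WT, too few in WT for a fold change to be read.

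Of 14 tested receptors that can trigger the oxidase, 7 were higher, 2 lower and 5 not called (median 0.08). That is 64.3% called, beside 53.8% of all tested genes. Tlr4, the receptor for bacterial lipopolysaccharide, rose from 60.3 ± 1.38 CPM in WT to 105 ± 2.86 CPM (log2 fold change 0.80, adjusted p = 2.27e-10). The Fc receptors Fcgr1 (0.50), Fcgr2b (0.25) and Fcgr3 (0.21), which bind antibody-coated particles, were higher too. Itgam, the alpha chain of complement receptor 3, was lower (-0.21), and its partner chain Itgb2 (-0.04) and the GM-CSF receptor gene Csf2ra (-0.02) were not called. Without replicate 2 of Alox5-/-, Csf2ra was called lower (-0.15, adjusted p = 0.0246).

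Markers of cell types that carry the oxidase differed between the genotypes in both directions. Beside the 53.8% called among all tested genes (26.8% higher and 27.0% lower), the marker lists gave the following counts. Of 11 tested neutrophil markers, 2 were higher, 7 lower and 2 not called, and the list's median was -0.70 on the log2 scale. S100a8, named after its values were seen, stood at 8.04 ± 0.713 CPM in Alox5-/- against 25.3 ± 1.01 CPM in WT. The summed level of that list ran the other way, 3696 to 3816 CPM in Alox5-/- against 3248 to 3539 CPM in WT, because it was made up mostly of Ctsg (log2 fold change 0.28), Prtn3 (-0.08, not called) and Elane (-0.17). The last pair turned on single libraries: without replicate 2 of Alox5-/-, Prtn3 was called (-0.17, adjusted p = 0.0202) and Elane was not (adjusted p = 0.0542). Elane also lost its call without replicate 3 of Alox5-/- (adjusted p = 0.0691) or replicate 1 of WT (0.124), and with DESeq2 (0.142), a robust fit (0.149) or library totals (0.0642).

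Of 7 tested monocyte and macrophage markers, 3 were higher, 2 lower and 2 not called, with sums of 1452 to 1571 CPM against 1623 to 1670 CPM, mostly Ly6c2. The largest absolute log2 fold change among them was 2.04, in a gene not named here, and only 1 differed at least 2-fold. Marco was at 0 reads, and the C1q genes were at 1 or 2 reads in all libraries together. Of 6 tested eosinophil, basophil and mast cell markers, 1 was higher, 3 lower and 2 not called. They summed to 68.6 to 74.2 CPM in Alox5-/- and 136 to 146 CPM in WT, with Hdc (-1.45) the most abundant. The largest absolute log2 fold change of that list was 4.30, in a gene not named here, and 3 genes differed at least 2-fold. Fcer1a, which mast cells and basophils express, was at 0 reads. The erythroid and megakaryocyte list summed to 2.46 to 2.67 CPM against 4.41 to 5.14 CPM. Lymphoid markers stayed at or below 1.70 CPM, and stromal and endothelial markers at or below 0.923 CPM in every library. The part of these marker differences in the results for Cybb, Ncf4 and Rac2 was not tested.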

How the data were processed

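The authors deposited raw read counts per gene for 6 libraries, 3 Alox5-/- and 3 WT. Counting used HTSeq on build mm10, and DESeq2 is also named, per the submitters' processing notes. Aligner, strand setting, annotation release and tool versions: not given in the sources used here. Per the labels' protocols, libraries were made with poly-A selection and a SMARTer amplification kit. The 5 summary rows entered neither library sizes nor tests, and 27 symbols turned into dates were restored from gene identifiers. Positions came from GENCODE vM21 (98.95% of identifiers matched), promoters from the RefSeq table, which matched 3 of the 5 members.

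Counts were tested in R 4.3.3 with edgeR 4.0.16 (TMM scaling with factors of 0.983 to 1.02, default expression filter, quasi-likelihood F-test, no covariate). P-values were adjusted by Benjamini-Hochberg over 13705 genes, threshold 0.05. CPM values use TMM-scaled totals. A limit of 3 reads equals 0.0775 to 0.103 CPM. The common biological coefficient of variation was 3.70%. Alternatives used DESeq2 1.42.0, limma-voom (limma 3.58.1), other scalings and filters, single libraries left out and a replicate block. The members and the gene lists were chosen with earlier results of these data known. Named genes were the members, all tested further subunits, Alox5 and Xist, up to 5 called genes of smallest p and 2 uncalled genes of highest level per pathway list, up to 3 genes of highest level per marker list, and the nearest 5 genes to Cybb and 2 to each other member. Some genes of these lists are not reported here and enter no list count.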

Additional observations from a re-analysis of the deposited data

How the results depend on the processing

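Cybb and Ncf4 stayed lower and called in every alternative run, with Cybb at -1.55 to -1.37 and Ncf4 at -0.26 to -0.22 when single libraries were left out. Cyba turned from -0.03 to 0.000458 with upper-quartile scaling and to 0.015 with library totals alone, and ranged from -0.076 to 0.000666 when single libraries were left out, never being called. Ncf1 became called with upper-quartile scaling (0.083) and library totals (0.10), and ranged from 0.03 to 0.07 with single libraries left out. Rac2 lost its call with library totals (-0.077) and ranged from -0.15 to -0.09. Among all tested genes 6130 to 7622 were called, and in the pathway lists 42 to 49. Same-numbered libraries did not deviate together (correlations -0.02, -0.08 and 0.02). With so few libraries this cannot exclude a shared litter, batch or day, which the labels do not state. With a replicate block the counts were 7029 and 47, the log2 fold changes were -1.46 (Cybb), -0.03 (Cyba), 0.05 (Ncf1), -0.24 (Ncf4) and -0.12 (Rac2), and no member's call changed.

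Signs near 0 also turned for uncalled genes. With upper-quartile scaling and library totals these were Cux1 (0.025 and 0.040), Csf2ra (0.0091 and 0.024), Tap2 (0.014 and 0.029) and Rbfa (0.0089 and 0.024), and with totals Rac1 (0.0016) and Pik3cd (0.0074). Cux1 gave 0.0059 without a filter and 0.013 at a mean of at least 5 CPM, and Tap2 0.0027 there. With single libraries left out, the ranges were -0.0025 to 0.068 (Prex1), -0.034 to 0.021 (Cux1), -0.011 to 0.022 (Ep300), -0.15 to 0.055 (Csf2ra), -0.28 to 0.026 (Klf1), -0.067 to 0.019 (Tap2) and -0.068 to 0.023 (Rbfa). Over all tested genes, the median log2 fold change was 0.028 with upper-quartile scaling and 0.043 with library totals. In the main fit it was 0.00. The cause of the turned signs was not tested. Cybb rests on 150 to 645 reads per library, far fewer than each other member.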
